A study of Mus musculus with 2 samples.

Results

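Cytochrome c oxidase, complex IV of the mitochondrial respiratory chain, takes electrons from cytochrome c and passes them to oxygen. Its catalytic core is encoded by the mitochondrial genome, and the surrounding subunits are encoded in the nucleus. For several of these subunits the mouse genome holds a ubiquitous isoform and a second isoform that is found mainly in certain tissues. Described here are the 10 genes of 5 such pairs, chosen by their symbols among the 23276 gene rows of the deposited table. The pairs are Cox4i1 and Cox4i2 (subunit 4), Cox6a1 and Cox6a2 (subunit 6a), Cox6b1 and Cox6b2 (subunit 6b), Cox7a2 and Cox7a1 (subunit 7a) and Cox8a and Cox8b (subunit 8). Cox6a2, Cox7a1 and Cox8b encode the forms of heart and skeletal muscle, Cox4i2 the oxygen-regulated form known from lung and vascular mural cells, and Cox6b2 the form known from testis. In the heart, the muscle forms are known to gain on the ubiquitous ones as the myocardium matures.

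Ventricles were taken at stage E12.5 from wild-type (WT) embryos and from embryos with both alleles of the long non-coding RNA gene Fendrr knocked out (KO). In both groups the background was C57BL/6 x 129SV and the embryos were made from embryonic stem cells by tetraploid complementation, so that the stem cells form the embryo and the tetraploid host cells its extra-embryonic tissues. For each genotype, 4 ventricles were pooled and made into 1 strand-specific library of total RNA without ribosomal RNA, sequenced for 100 bases from 1 end. There was thus 1 library per genotype, each on a sequencing run of its own, so genotype, stem cell source and run cannot be told apart. No difference below has a replicate check or a test, and "higher" or "lower" refers to these libraries alone. In RNA from pooled tissue, fewer cells of a type and less RNA per cell cannot be told apart either.

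Values are FPKM, that is fragments scaled to transcript length and to the mapped fragments of the library. Levels of different genes can therefore be set side by side, but only as far as the transcript lengths used, which are not given, hold. Annotated lengths vary within a gene, from 293 to 618 nt for Cox6b1. Differences are log2((KO + 1)/(WT + 1)), which understates those of low genes, and a gene was counted as apart at 2-fold, a log2 ratio of at least 1 in size. Of 23276 rows, 11349 reached a mean of 1 FPKM over the libraries, and all 10 isoform genes were among them. The median log2 ratio of the 11349 genes was -0.11. The absolute depths are not given in the sources used here and were not estimated. Fendrr, present as 1110050K14Rik, had a listed value of 0 in either library, which gave no check of the genotype. Y-linked transcripts differed, with Ddx3y at 17.7 FPKM in WT against 0.786 FPKM in KO. The imprinted genes Mest (557 FPKM in WT against 1.48 FPKM in KO) and H19 (1360 and 41.9 FPKM) also differed. Markers of ventricular muscle were abundant in both libraries, with Myl2 at 9103 FPKM in WT against 9478 FPKM in KO.

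Of the 10 genes, 7 had an entry in the RefSeq table of promoters (GRCm38.p6), and Cox4i1, Cox4i2 and Cox6a2 had none. The stretches of 250 bases before the annotated start of both genes of subunits 8 and 7a are shown because the ubiquitous and the muscle gene differ visibly in CpG dinucleotides, which are in capitals, and because these 2 pairs had the largest shifts in isoform share, in percentage points, given below. They lie at chr7:140900447-140900696 on the minus strand for Cox8b, chr19:7217617-7217866 on the minus strand for Cox8a, chr7:30183921-30184170 on the plus strand for Cox7a1 and chr9:79759854-79760103 on the minus strand for Cox7a2.
Cox8b: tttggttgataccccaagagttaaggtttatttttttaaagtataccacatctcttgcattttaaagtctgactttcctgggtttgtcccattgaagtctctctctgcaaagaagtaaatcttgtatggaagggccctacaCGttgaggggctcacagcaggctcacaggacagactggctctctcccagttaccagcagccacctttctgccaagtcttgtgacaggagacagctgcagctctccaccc
Cox8a: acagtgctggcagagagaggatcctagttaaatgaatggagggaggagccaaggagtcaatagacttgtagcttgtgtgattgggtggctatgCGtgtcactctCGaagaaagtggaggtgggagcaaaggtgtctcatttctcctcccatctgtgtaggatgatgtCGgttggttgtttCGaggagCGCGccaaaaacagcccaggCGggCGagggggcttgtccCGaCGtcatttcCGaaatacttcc
Cox7a1: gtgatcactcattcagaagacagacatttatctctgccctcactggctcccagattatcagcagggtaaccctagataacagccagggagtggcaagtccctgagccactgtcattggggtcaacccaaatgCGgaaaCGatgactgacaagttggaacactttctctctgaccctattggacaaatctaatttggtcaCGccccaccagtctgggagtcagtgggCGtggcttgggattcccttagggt
Cox7a2: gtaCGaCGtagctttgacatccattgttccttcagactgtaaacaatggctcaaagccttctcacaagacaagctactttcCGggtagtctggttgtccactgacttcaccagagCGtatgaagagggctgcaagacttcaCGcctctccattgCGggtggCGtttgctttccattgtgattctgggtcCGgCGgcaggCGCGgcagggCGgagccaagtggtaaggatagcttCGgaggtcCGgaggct

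The muscle gene Cox8b had 1 CpG in this stretch and its ubiquitous partner Cox8a had 11. Cox7a1 had 4 and Cox7a2 had 14, and the median over 32851 promoters was 6. The ubiquitous Cox6a1 and Cox6b1 had 26 and 14, and the testis isoform gene Cox6b2 had 8. All 4 ubiquitous genes with an entry were thus above the median promoter, and both muscle genes were below it. The letters CGGAAG, the core bound by the ETS factor GABP (also called NRF-2), were searched on both strands of the 300-base window that runs 250 bases before to 50 bases after the start. They were found in 4 of 4 ubiquitous genes (Cox6a1, Cox6b1, Cox7a2 and Cox8a) and in 0 of 3 tissue isoform genes (Cox6b2, Cox7a1 and Cox8b), against 16.9% of all promoters. CGGAAG itself contains a CpG, so this contrast is not separate from that in CpG number, and promoters of like CpG number were not compared. GCGCATG, the core bound by NRF1, was found in Cox6a1, at 2 overlapping positions on opposite strands, and in 3.91% of all promoters. The E-box CAGCTG was found 2 times in Cox8b, 19 bases before the start and from base 17 after it, and in 16.3% of all promoters. The TATA box letters TATAAA were found in Cox8b, from base 5 after the annotated start, and in 13.6% of all promoters. ACGTG, the core of hypoxia response elements, was found 2 times in Cox8b and 1 time in Cox7a1, and in 19.6% of all promoters. TGGGAA, the core bound by RBPJ, was found in Cox6b1 and in 25.6% of all promoters. No MEF2 motif was found in the 7 windows, and 3.19% of all promoters held it. These motifs were chosen after the sequences had been seen, and a match describes letters, not binding.

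The ubiquitous isoforms made up most of the summed FPKM of every pair in both libraries, and their levels were close between the libraries. Cox6b1, whose protein helps hold the dimer of the complex together, was the most abundant of the 10 genes, at 573 FPKM in WT against 550.1 FPKM in KO. Cox4i1, the ubiquitous form of the subunit that binds adenine nucleotides, followed at 469.7 FPKM in WT against 409 FPKM in KO. Cox8a was at 173 FPKM in WT against 151 FPKM in KO, and Cox7a2 at 137 and 122 FPKM. These 4 were the most abundant isoform genes in the same order in both libraries. Cox6a1 was at 78.6 FPKM in WT against 79.3 FPKM in KO. The log2 ratios of the 5 ubiquitous genes ran from -0.20 (Cox8a and Cox4i1) to 0.01 (Cox6a1), with 2 above and 3 below the median of all genes. None was near the 2-fold limit. As deposited, Cox6b1 had a log2 ratio of -0.06 and Cox7a2 of -0.17, and both turned positive with quantile normalization (0.094 and 0.058), so that no direction is given for them.

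**Figure D1:**
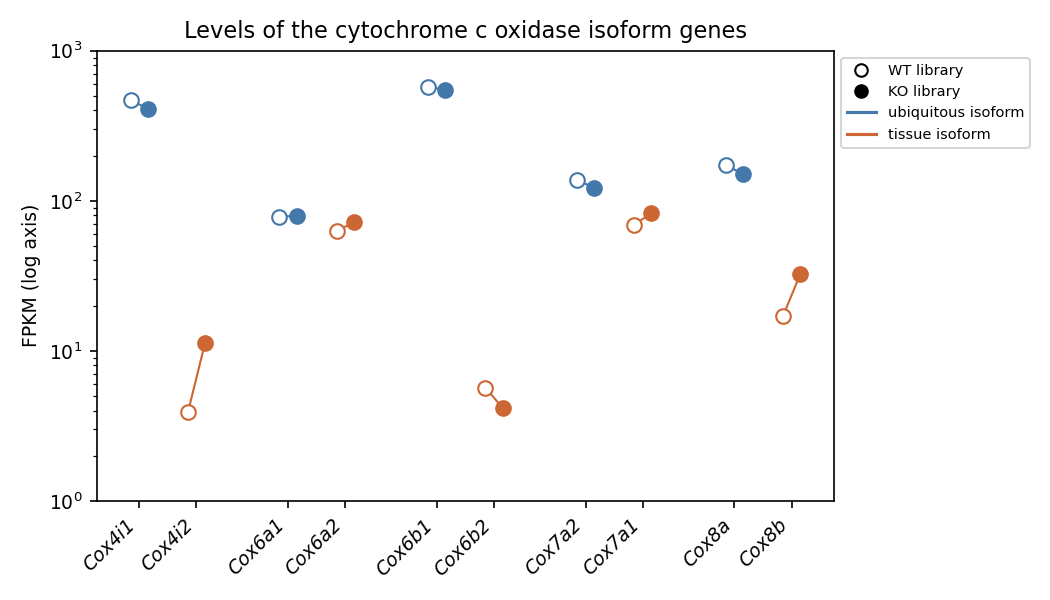
FPKM on a log axis of the 10 isoform genes, grouped by pair, in the WT library (open circles) and the KO library (filled circles), with ubiquitous isoforms in blue and tissue isoforms in orange. The lines of the blue genes are nearly flat, while Cox4i2 goes from 3.89 to 11.3 FPKM and Cox8b from 17.1 to 32.3 FPKM.

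Among the tissue isoforms, Cox4i2 and Cox8b stood out as higher in the KO library. Cox4i2, whose product replaces Cox4i1 at low oxygen, was at 3.89 FPKM in WT against 11.3 FPKM in KO. Its log2 ratio of 1.33 was the 32nd highest of 11349. At a KO depth of 1.26 times that of WT, as read from low values, this equalled 3.65 KO reads for each WT read. Cox8b, the muscle form of the smallest subunit, was at 17.1 FPKM in WT against 32.3 FPKM in KO. Its log2 ratio of 0.88 was the 64th highest and lay just under the 2-fold limit. Cox7a1, the muscle form of the subunit that takes part in dimers and supercomplexes, was at 69.3 FPKM in WT against 82.9 FPKM in KO, a log2 ratio of 0.25. Cox6a2, the muscle form of a subunit at the dimer interface, was at 63.1 FPKM in WT against 71.8 FPKM in KO, a log2 ratio of 0.18. The testis form Cox6b2 had the opposite difference, with 5.69 FPKM in WT against 4.16 FPKM in KO, a log2 ratio of -0.37. The 3 muscle isoforms were thus all higher in KO, by unequal amounts, as they also were under each scaling and pseudocount tried. For Cox7a1 and Cox6a2 this was not unusual, as their log2 ratios were the 983rd and 1484th highest of 11349. A ratio above 0 was common, since the ubiquitous Cox6a1, at 0.01, was the 3543rd highest.

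At the 2-fold limit, 1 of the 10 genes, Cox4i2, was apart and higher in KO. Of all 11349 genes, 0.467% were at least 2-fold higher in KO, 0.388% at least 2-fold lower and 0.855% apart in either direction. The share of higher genes among those apart was 54.6%, and 71.3% after the median ratio was brought to 0. The genes had been chosen with these ratios known, so the count is a description. At a 1.5-fold limit 2 of the 10 were apart, Cox4i2 and Cox8b, both higher in KO, against 5.14% of all genes in either direction and 1.54% higher. Among 4661 genes with a mean within 2-fold of that of Cox4i2, 0.451% were at least 2-fold higher, and among 3058 genes with a mean like that of Cox8b, 0.196% were. With a pseudocount of 5 FPKM the log2 ratio of Cox4i2 was 0.87, under the limit. Cox8b passed the limit with upper-quartile scaling (1.01), quantile normalization (1.03) and centring on genes of like transcript length (1.03).

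**Figure D2:**
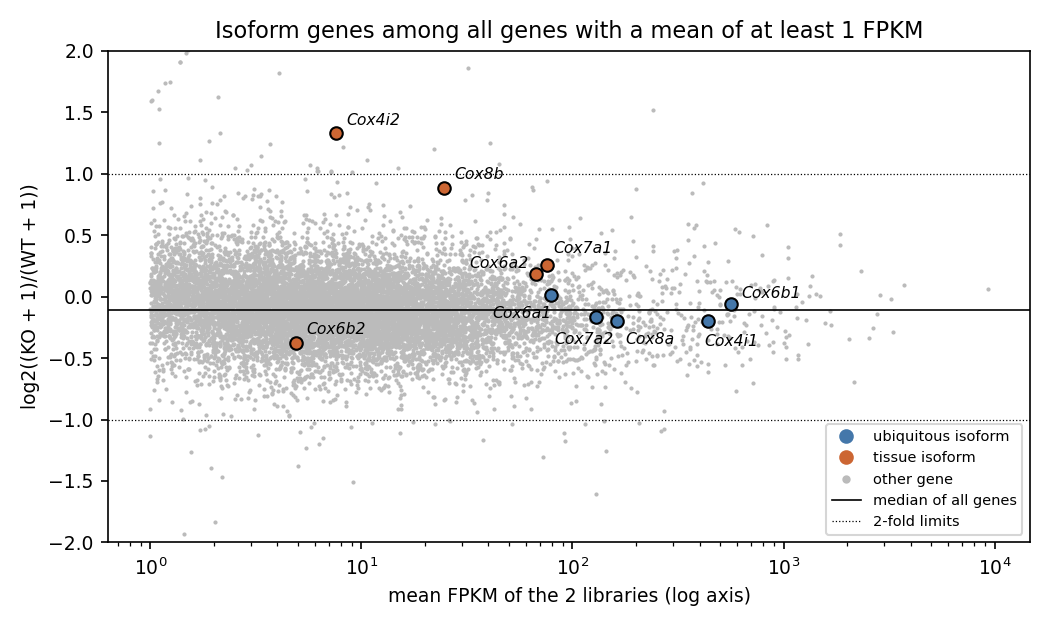
Log2((KO + 1)/(WT + 1)) against the mean FPKM of the libraries (log axis) for the 11349 genes that reached a mean of 1 FPKM, the ubiquitous isoforms in blue and the tissue isoforms in orange, with the median of all genes (solid line) and the 2-fold limits (dotted lines); 24 genes beyond 2 in size on the vertical axis are not drawn. Cox4i2 lies above the upper limit, Cox8b just under it, and the other 8 genes lie in the band of most genes.

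Within each pair, the share of the tissue isoform in the summed FPKM of the pair does not depend on how a library is scaled, as long as 1 factor applies to all its genes. For subunit 8, Cox8b made up 8.97% in WT and 17.7% in KO, and the ratio of Cox8b to Cox8a was 2.18 times as high in KO. For subunit 4, Cox4i2 made up 0.821% in WT and 2.68% in KO, a ratio to Cox4i1 that was 3.33 times as high. Cox4i1 nonetheless exceeded Cox4i2 by 120.8 times in WT and 36.3 times in KO. For subunit 7a, Cox7a1 made up 33.5% in WT and 40.4% in KO, a ratio to Cox7a2 that was 1.35 times as high. For subunit 6a, where both isoforms were near balance, Cox6a2 made up 44.5% in WT and 47.5% in KO, a ratio 1.13 times as high. For subunit 6b, Cox6b2 made up 0.983% in WT and 0.75% in KO, a ratio to Cox6b1 of 0.761 times that in WT.

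**Figure D3:**
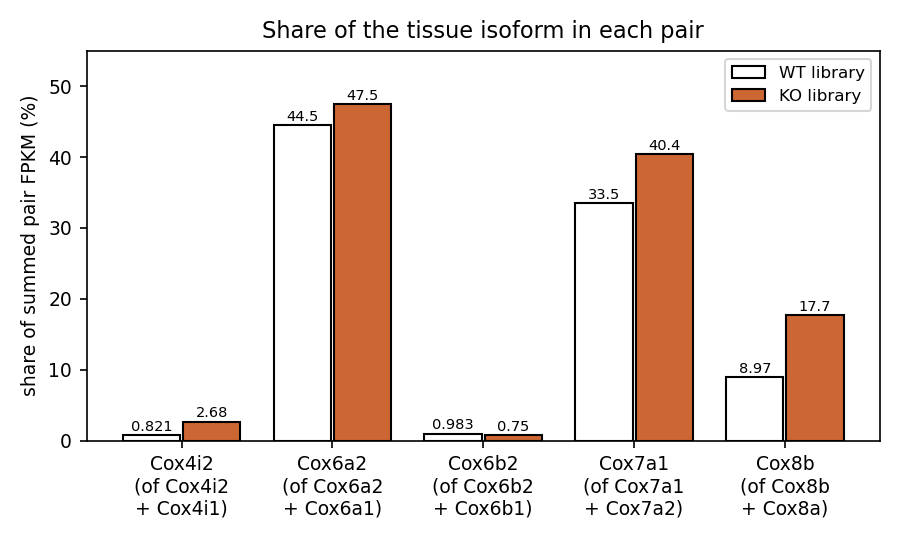
Share (percent, from 0) of the tissue isoform in the summed FPKM of its pair in the WT library (white bars) and the KO library (orange bars), 1 library each and therefore without error bars. The share is larger in KO for Cox4i2, Cox6a2, Cox7a1 and Cox8b and smaller for Cox6b2.

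Muscle isoforms thus differed widely in how far they stood from their partners at this stage, from near balance for Cox6a2 to a minor share for Cox8b. On the log2 scale, the summed level of each pair was closer between the libraries than the ratio of its isoforms, though for subunit 6a by little (0.09 for the sum and 0.17 for the ratio). Cox4i2, Cox6b2 and Cox8b were minor parts of their pairs, so those sums mostly followed the ubiquitous gene. For these pairs the contrast therefore cannot show that a total was kept while isoforms were exchanged. The sum of Cox8a and Cox8b was 190.1 FPKM in WT against 183 FPKM in KO, that of Cox7a2 and Cox7a1 was 207 and 205 FPKM, and that of Cox6b1 and Cox6b2 was 579 and 554 FPKM. The sum of Cox4i1 and Cox4i2 was 474 FPKM in WT against 421 FPKM in KO, and that of Cox6a1 and Cox6a2 was 142 and 151 FPKM. Log2 ratios of the 5 sums ran from -0.17 (subunit 4) to 0.09 (subunit 6a). Over all 10 genes the tissue isoforms made up 10.0% of the FPKM in WT and 13.4% in KO.

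No read of 100 bases can match both isoforms of a pair exactly. The longest stretch of bases shared exactly by the GENCODE transcripts of a pair was 14 bases, in the pairs of subunits 4 and 6b. A stretch of at least 100 bases, the read length, was shared with another gene by Cox4i1 and Cox6a1 alone. Cox4i1 shares 154 bases with a transcript of its neighbour Emc8, which was at 6.04 FPKM in WT against 4.65 FPKM in KO, and Cox6a1 shares 106 bases with an annotated pseudogene. Cox4i2, Cox6a2 and Cox7a2 also overlap other RefSeq genes in extent, Cox4i2 among them Bcl2l1, at 11.1 FPKM in WT against 9.90 FPKM in KO. Whether the counting used strand was not given in the sources used here, so reads in such overlaps cannot be assigned with certainty. Transcripts of the 10 genes are short, with median lengths from 360 nt (Cox8b) to 730 nt (Cox4i2). The 1883 expressed genes in that length range had a median log2 ratio of -0.14, and 0.637% of them were at least 2-fold higher in KO. Expressed genes under 200 nt, which include none of the 10, had a median log2 ratio of 1.37 (32 genes).

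Cox4i1 lies on chromosome 8, as does Fendrr. In RefSeq, 11 annotated genes lie between Cox4i1 and Fendrr, of which Irf8, a myeloid transcription factor gene, had a row. Irf8 was at 0.811 FPKM in WT against 0.817 FPKM in KO. The genes on either side of Cox4i1 were thus, like Cox4i1 itself, less than 2-fold apart. Next to Cox4i2 on chromosome 2, Id1, a BMP target gene that encodes an inhibitor of bHLH factors, was at 9.73 FPKM in WT against 15.9 FPKM in KO, a log2 ratio of 0.65. Bcl2l1, on the other side of Cox4i2, was at 11.1 FPKM in WT against 9.90 FPKM in KO, a log2 ratio of -0.15. Next to Cox8b on chromosome 7, the proteasome gene Psmd13 was at 65.0 FPKM in WT against 51.9 FPKM in KO.

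The nuclear subunits of complex IV that have no part in these pairs did not share one direction. Of the 10 listed, 8 had a mean of at least 1 FPKM, 6 of them above and 2 below the overall median. Their median log2 ratio was 0.02, and 0 were apart by 2-fold. With 0.855% of all genes apart, a count of 0 in this and the other short lists below says little. Cox6c, the most abundant, was at 708 FPKM in WT against 760.2 FPKM in KO, Cox7b at 407 and 458 FPKM, and Cox7c at 217 and 251 FPKM. Cox5b was at 367 FPKM in WT against 354 FPKM in KO, and Cox5a at 67.7 and 49.3 FPKM. Cox7a2l, a relative of Cox7a2 that joins complexes III and IV into supercomplexes, was at 178 FPKM in WT against 126 FPKM in KO. Ndufa4, now counted as a complex IV subunit, was at 169.8 FPKM in WT against 163 FPKM in KO. Its hypoxia-induced relative Ndufa4l2 was at 1.99 FPKM in WT against 3.16 FPKM in KO, and its share of the summed FPKM of both went from 1.16% in WT to 1.90% in KO. The testis isoform Cox7b2 was at 0.281 FPKM in WT but listed at 0 in KO, and Cox8c was listed at 0 in both. Cytochrome c itself (Cycs), the electron donor of the complex, was at 224 FPKM in WT against 185 FPKM in KO, and its testis form Cyct at 1.64 and 0.653 FPKM. The 3 mitochondrially encoded subunits were not found among the rows by symbol and were not analysed here.

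All 26 listed assembly factors of complex IV were expressed, 13 above and 13 below the overall median, with 0 apart by 2-fold. Their log2 ratios ran from -0.71 to 0.82, with a median of -0.10. The copper chaperone gene Cox17 was the most abundant, at 155 FPKM in WT against 140.2 FPKM in KO. The furthest above were Pet117 (1.35 FPKM in WT against 3.14 FPKM in KO) and Pet100 (22.5 and 39.7 FPKM). Slirp, whose product binds mitochondrial mRNA, was at 95.7 FPKM in WT against 68.2 FPKM in KO.

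Of the listed genes of known regulators 0 were apart by 2-fold, near the share of 0.855% among all genes. Of 15 general regulators of nuclear respiratory genes, 7 lay above and 8 below the overall median, with a median log2 ratio of -0.11. Gabpa, which encodes the DNA-binding subunit of GABP, was at 26.5 FPKM in WT against 26.3 FPKM in KO, and Mef2a, a muscle transcription factor gene, at 37.4 and 35.2 FPKM. The estrogen-related receptor gene Esrra was at 13.4 FPKM in WT against 9.22 FPKM in KO, and Tfb1m, which encodes a mitochondrial rRNA methyltransferase, at 8.88 and 5.20 FPKM. Of 7 genes linked to the control of Cox4i2, 4 lay above and 3 below the median. Rbpj was at 8.92 FPKM in WT against 9.56 FPKM in KO, its cofactor gene Chchd2 at 201 and 144 FPKM, and the inhibitor gene Cxxc5 at 11.2 and 8.16 FPKM. The oxygen-regulated factor genes Hif1a and Epas1 were at 128 and 2.26 FPKM in WT and at 115 and 2.95 FPKM in KO. Their partner Arnt was at 3.53 FPKM in WT against 5.12 FPKM in KO, and Lonp1, which encodes a mitochondrial protease, at 46.8 and 43.5 FPKM.

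Muscle forms of other energy genes were not higher as a list: 4 of 9 lay above and 5 below the overall median, with a median log2 ratio of -0.21 and 0 apart by 2-fold. Ckm, the cytosolic muscle creatine kinase gene, was at 45.8 FPKM in WT against 84.6 FPKM in KO, a log2 ratio of 0.87 beside 0.88 for Cox8b. Slc25a4, the muscle form of the adenine nucleotide carrier, was at 2289 FPKM in WT against 1805 FPKM in KO, and the fatty acid binding protein gene Fabp3 at 267 and 194 FPKM. Pgam2, the muscle phosphoglycerate mutase gene, was at 259 FPKM in WT against 273 FPKM in KO.

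**Figure D4:**
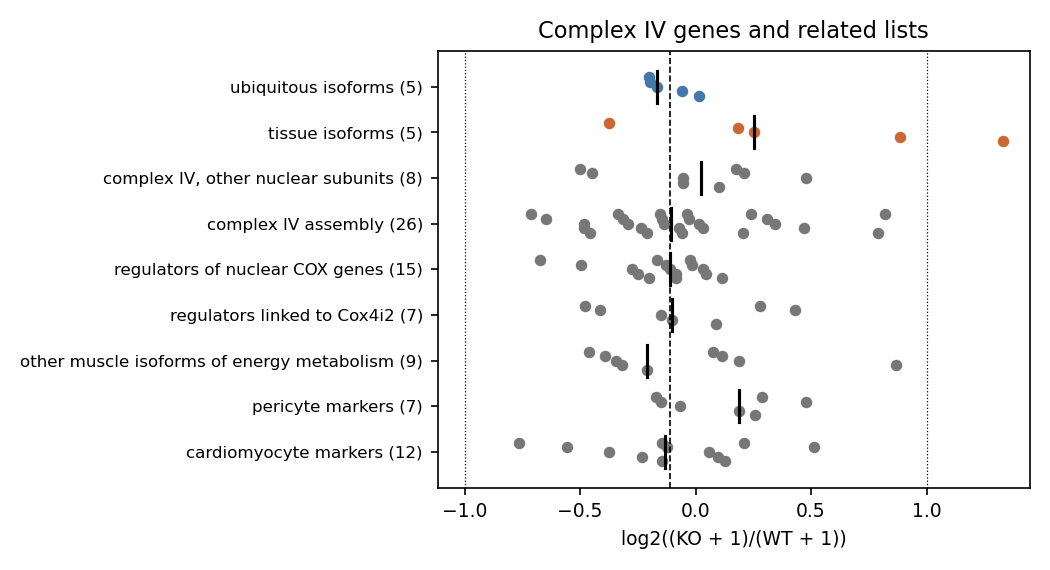
Log2((KO + 1)/(WT + 1)) of each gene that reached a mean of 1 FPKM (points) and the median (bars) for the isoform genes, the other complex IV lists, regulators and 2 marker lists, with the number of genes in parentheses, the median of all genes (dashed line) and the 2-fold limits (dotted lines). The ubiquitous isoforms lie between -0.20 and 0.01, the tissue isoforms are spread from -0.37 to 1.33, and Cox4i2 is the only point past a limit.

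Marker levels of the cells known to use these isoforms were as follows, and their part in the differences was not tested. The summed FPKM of 12 cardiomyocyte markers was 22640 in WT and 23218 in KO, with 5 above and 7 below the median of all genes. Myl2 makes up the largest part of that sum, and other members differed in both directions, with the troponin gene Tnnt2 at 1524 FPKM in WT against 2174 FPKM in KO and Tnni3 at 753 and 443 FPKM. Pericytes are known to express Cox4i2, and of 11 pericyte markers 7 were expressed, 5 above and 2 below the median, and the list summed to 38.2 FPKM in WT against 40.2 FPKM in KO. Higd1b and Vtn were listed at 0 in both libraries, Pdgfrb was at 7.05 and 8.61 FPKM and Abcc9 at 17.7 and 15.9 FPKM. Ndufa4l2, given above, is also in this list. The 5 smooth muscle markers summed to 742 FPKM in WT against 660.1 FPKM in KO, and of the 4 expressed, 2 lay above and 2 below the median. Most of that sum came from Acta2 (467 and 409 FPKM), Cnn1 (149 and 115 FPKM) and Tagln (120 and 131 FPKM). Myh11 was at 0.301 FPKM in WT against 0.332 FPKM in KO. The 8 endothelial markers summed to 254.9 FPKM in WT against 255 FPKM in KO.

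Lung epithelium markers summed to 0.0675 FPKM in WT against 0.0488 FPKM in KO, with 3 of 5 listed at 0 in both. Of 11 skeletal muscle markers, 9 had a mean under 1 FPKM, the myogenic factor gene Myod1 was listed at 0 in WT and at 0.0328 FPKM in KO, and the list summed to 11.4 FPKM in WT against 10.5 FPKM in KO. Brown fat markers, of a tissue that also uses Cox7a1 and Cox8b, summed to 3.58 FPKM in WT against 3.19 FPKM in KO, with Ucp1 listed at 0 in both. Testis markers summed to 3.93 and 3.50 FPKM, with Tnp1, Prm1, Ldhc and Pgk2 listed at 0 in both. The erythroid markers summed to 4991 FPKM in WT against 5566 FPKM in KO. Of 5 liver and yolk sac markers, 3 were expressed, all 3 above the median and 1 of them, Afp, at least 2-fold higher in KO. The list summed to 8.74 FPKM in WT against 31.4 FPKM in KO. Alb was listed at 0 in both, and Afp was at 0.110 FPKM in WT against 16.6 FPKM in KO. Whether tissue of that kind adds to the levels of Cox4i2 or Cox8b was not tested.

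The genes nearest to Cox4i2 in level over the 2 libraries, by Euclidean distance in log2(FPKM + 1) among 11349 genes, were the lysosomal protease gene Ctss (4.51 FPKM in WT against 11.8 FPKM in KO, distance 0.18), the class II histocompatibility gene H2-Ab1 (4.42 and 9.99 FPKM, distance 0.22) and 2610019E17Rik (4.40 and 9.89 FPKM, distance 0.23). With 2 libraries, this likeness means only that both levels are close.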

How the data were processed

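Each gene symbol has 1 deposited FPKM value for each library. Per the submitters' processing notes, the authors used TopHat2 2.0.6, Bowtie2 2.0.2 and Cufflinks 2.0.2 with the mouse build mm9. Which annotation and which options they used is not given in the sources used here. Per the labels, the WT run was aborted, base calling for it was done manually and may have included a filter on read length, whereas the KO run used the standard pipeline.

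Log2 ratios used a pseudocount of 1 FPKM and were read beside all genes that reached a mean of 1 FPKM, and shares used no pseudocount. No p-value was computed with 1 library per genotype. Relative depth came from low values: the quotient of KO and WT values, divided by 0.796, was a quotient of whole numbers no larger than 10, to within 0.1%, for 68.9% of the 2213 genes that were not 0 in either library and averaged less than 0.3 FPKM. This puts the KO depth at 1.26 times that of WT, provided that FPKM was scaled by all mapped fragments. Precision from counting is not given, since the absolute depths were not estimated.

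Lengths and shared stretches came from GENCODE vM21, and gene order and promoters from RefSeq on GRCm38.p6, another build than that of the values. Lengths were found for 93.1% of expressed genes. Genes were named by a rule: all 10 isoform genes, every gene of the lists of other complex IV subunits, cytochrome c and regulators linked to Cox4i2, up to 4 genes of each other list (the 2 most abundant and the 2 furthest from the median), the nearest genes on each side, and the 3 genes nearest in level to an isoform gene past the limit. Not all are printed, and genes outside the rule (Myod1, Ucp1, Higd1b, Vtn, Alb, Tnp1, Prm1, Ldhc, Pgk2, Myh11, Ddx3y, Mest, H19) were named after their values were seen. The isoform genes and all lists were chosen with earlier results of these data known. Ratio and scaling functions were tested on simulated data. Python 3.11.15, numpy 2.4.6, pandas 2.3.3 and matplotlib 3.10.9 were used.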

Additional observations from a re-analysis of the deposited data

How the results depend on the processing

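No paired analysis was possible because there was a single library of each genotype, which also means that neither could be omitted. Of 99 recomputed values, 90 stayed on their side of the 2-fold limit or, for shares and counts, within 1.5 times of the reported value, and 6 of these 90, all ratios near 0 of ubiquitous genes, changed sign or became 0. The number of isoform genes at least 2-fold apart, reported as 1, was 0 with a pseudocount of 5 FPKM and 2 with upper-quartile scaling, quantile normalization, centring on genes of like length and a 1.5-fold limit, where 5.14% of all genes were apart. The second gene was Cox8b each time, and with median centring it was at 0.99. The log2 ratio of Cox4i2 ranged from 0.87 to 1.51. The within-pair shift ranged on the log2 scale from 1.53 to 1.77 for subunit 4 and from 1.07 to 1.12 for subunit 8, and the shifts of the other 3 pairs stayed under the limit with their direction. Of the ubiquitous genes, Cox6b1 was positive under 4 scalings, at 0.051 to 0.094, Cox7a2 was positive with quantile normalization, and Cox8a was at 0 there. Total depth was not estimated, so no counting error is given for Cox4i2 and Cox6b2, the lowest genes.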
